A study of Mus musculus with 20 samples.

Results

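Ccnd2, Ccnd3, Cdk4, Cdk6, Cdkn1b, Btg1 and Btg2, the genes of the G1 cyclin machinery and of cell quiescence, were followed in splenic follicular T cells by mouse, cluster and condition. The 7 genes were chosen by name, with earlier results of these data known, and not by a threshold on measured values. All 7 had a row among the 13798 genes of the expression table. The table holds 28192 cells of 10 C57BL/6 bone marrow chimeras, each given one 5′ single-cell RNA library and one T cell receptor library. The 5 WT chimeras (mice 11, 12, 14, 23 and 36; 14965 cells) were irradiated mice rebuilt with congenic marrow and immunized with the hapten-protein conjugate NP-OVA in alum at week 6. The 5 564Igi chimeras (mice 13, 17, 21, 24 and 34; 13227 cells) received congenic marrow mixed with 564Igi marrow, which carries knocked-in heavy and light chains of an autoreactive B cell receptor, and the labels give them no immunization. All were killed at week 10, so autoreactive B cells and the absence of immunization cannot be told apart as the difference between the groups. The recipients were adult, and the sorted T cells descended from donor marrow.

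D-type cyclins are made in response to growth signals and bind CDK4 or CDK6, and the complexes phosphorylate the retinoblastoma protein so that E2F factors can open the way from G1 to S phase. p27, the product of Cdkn1b, holds back cyclin-CDK complexes, and BTG1 and BTG2 recruit the CCR4-NOT deadenylase to shorten mRNA tails and help to keep naive T cells at rest. Lymphocytes use cyclin D2 and cyclin D3 with CDK6 and CDK4, whereas Ccnd1 is usually silent in T cells. Here Ccnd1 was found in 0.0606% of cells, a share averaged over mice, against 54.1% for Ccnd2 and 49.1% for Ccnd3.

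The authors removed cells with high S or G2/M scores before deposit, and the values show the limit. The highest remaining S score was 0.150 and the highest G2/M score was 0.149, and 23979 cells (85.1%) had both scores at or below 0. Transcripts of phase genes were still present. The 2 genes found in most cells are given from each list of 18 phase genes. Mcm6, a subunit of the replicative helicase, was found in 37.4% of cells and Slbp, the histone mRNA binding protein, in 33.3%, whereas Top2a and Mki67, both abundant in dividing cells, were found in 6.80% and 5.05%. None of these 4 genes was called different between 564Igi and WT cells (adjusted p = 0.9997 for each, limma). Most phase genes were found less often. Among the rest of the S phase list Pcna was highest at 16.7%. In the S phase list 3 genes lay under 1% of cells, and in the G2/M list 13.

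Values are log2(corrected count + 1), averaged over the cells of a mouse, where the corrected count is the count of unique molecular identifiers (UMIs) after the authors' sctransform step. Levels are tested within a gene only. Shares and ranges of different genes set side by side are descriptions, not adjusted for how much of each gene was counted. Mice were the replicates, and a call needed an adjusted p under 0.01 (Benjamini-Hochberg, over every gene tested) together with a log2 difference over 0.2. The authors normalized WT and 564Igi cells separately, so this step and the condition cannot be told apart. Mice gave 1121 to 4030 cells and 3424280 to 15241983 UMIs, and the median UMIs per cell ranged from 2728 to 4376. For cells, depth, genes, mitochondrial share, phase scores and heat shock score, an exact permutation test between the conditions (two-sided, 252 assignments) gave p from 0.119 to 0.968. A batch spread over both conditions does not show in such a test. The paper describes batch effects tied to a heat shock signature. The mean heat shock score was 0.115 in 564Igi mouse 34 and 0.081 in WT mouse 36, and the next highest was 0.047 in WT mouse 14. Heat shock genes summed to 30.2, 27.0 and 20.7 corrected counts per cell in these mice. Of the cells, 988 carried a barcode that also occurs in another library. Cd3e was found in 99.4% of cells, Cd4 in 67.3%, Pdcd1 in 75.6% and Cxcr5 in 40.7%, and Bcl6, the TFH lineage factor, in 10.9%. B cell genes summed to 0.105 corrected counts per cell in WT mice and 0.103 in 564Igi mice, and no erythroid gene was found in more than 0.465% of cells. CD8 and NK genes summed to 0.113 in WT and 0.123 in 564Igi mice. Myeloid genes summed to more, at 0.772 in WT and 0.749 in 564Igi mice. Of these, Cst3 was found in 45.3% of cells and Cd68 in 3.44%. Fewer cells with a transcript and less transcript per cell were not separated in the mean levels.

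The authors' 6 clusters held 11953 activated follicular helper (TFH) cells, 11650 follicular regulatory (TFR) cells, 2803 Sostdc1 TFH, 725 central memory TFH, 682 effector TFH and 379 interferon stimulated TFH cells. Their markers followed the names in most clusters. Foxp3 was found in 56.05% of TFR cells and at most 26.3% elsewhere, Sox4 in 66.9% of central memory cells and at most 3.52% elsewhere, Gzmk in 83.1% of effector cells and at most 24.9% elsewhere, and Ifit1 in 89.4% of interferon stimulated cells and at most 5.68% elsewhere. Tnfsf8 marked the activated cluster less sharply, at 63.5% of its cells and up to 77.0% of those of another cluster. Only mice with 20 or more cells of a cluster were used, which left 3 564Igi mice for central memory TFH and 4 mice per condition for interferon stimulated TFH.

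The genes lie apart in the genome except for 2 pairs on shared chromosomes. On GRCm38, Ccnd2 spans chr6:127125162-127152193 on the minus strand and Cdkn1b chr6:134920401-134925513 on the plus strand. Btg1 spans chr10:96617006-96622809 and Cdk4 chr10:127063534-127067920, both on the plus strand. Ccnd3 lies at chr17:47505051-47599691 and Cdk6 at chr5:3341485-3531008, both on the plus strand, and Btg2 at chr1:134075170-134079120 on the minus strand. The annotation gives all 7 as protein coding.

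The 250 bases before the RefSeq start (GRCm38.p6) are shown for Cdk4, whose level differed most sharply in central memory TFH. They are also shown for the paralogues Btg1 and Btg2, whose mean levels were ordered differently over the clusters. RefSeq promoter windows matched 6 of the 7 genes, with Ccnd2 unmatched. Capitals mark the motif CACGTG (E-box) in Cdk4, the letters TGACG or CGTCA (cAMP response element core) and TGTTTAC (a forkhead motif) in Btg1, and TGACGTCA (a full cAMP response element) in Btg2. Motifs were searched on both strands, and TGACGTCA contains TGACG on each strand.
Cdk4: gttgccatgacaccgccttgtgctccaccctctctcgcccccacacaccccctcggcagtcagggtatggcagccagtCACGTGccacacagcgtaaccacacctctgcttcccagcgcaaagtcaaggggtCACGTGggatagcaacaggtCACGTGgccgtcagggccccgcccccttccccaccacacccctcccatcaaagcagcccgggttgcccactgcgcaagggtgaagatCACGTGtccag
Btg1: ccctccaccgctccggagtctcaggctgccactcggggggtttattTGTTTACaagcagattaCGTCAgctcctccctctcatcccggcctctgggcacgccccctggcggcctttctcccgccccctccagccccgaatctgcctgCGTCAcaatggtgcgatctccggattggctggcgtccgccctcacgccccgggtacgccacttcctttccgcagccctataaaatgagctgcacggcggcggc
Btg2: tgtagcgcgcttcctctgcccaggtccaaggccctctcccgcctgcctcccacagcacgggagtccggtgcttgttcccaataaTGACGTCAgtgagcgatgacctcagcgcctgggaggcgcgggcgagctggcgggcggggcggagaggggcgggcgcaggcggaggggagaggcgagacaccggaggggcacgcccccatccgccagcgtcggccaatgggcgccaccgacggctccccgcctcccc
The Cdk4 window, at chr10:127063285-127063534 on the plus strand, held CACGTG 4 times. CACGTG occurred in 6.02% of 32851 RefSeq promoter windows of this length, and 3 or more copies occurred in 0.0609%. The Btg1 window, at chr10:96616751-96617000 on the plus strand, held the TGACG core 2 times (17.8% of windows hold it) and TGTTTAC once (3.17% of windows). The Btg2 window, at chr1:134079156-134079405 on the minus strand, held the full TGACGTCA, which 1.55% of windows hold. These matches describe the letters of the windows and show no binding.

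The mean levels of the 7 genes ran in different orders over the clusters, not all of them held from mouse to mouse. For Cdkn1b the highest cluster lay above the lowest in only 4 of 8 mice, and for Btg2 in 6 of 8. The clusters were made from the expression of these same cells, so their levels are a description and carry no test. Ccnd2 was highest in interferon stimulated TFH, at 1.49 ± 0.15 (SD, n = 8 mice), and found in 80.6% of these cells. Its levels there were 1.69, 1.30, 1.70 and 1.48 in WT mice 11, 14, 23 and 36 and 1.34, 1.55, 1.48 and 1.38 in 564Igi mice 13, 17, 21 and 34. Every one of the 8 mice lay above its own activated TFH cells, by 0.50 ± 0.12 (SD) on the log2 scale. Activated TFH followed at 0.96, then effector TFH at 0.87, TFR at 0.78 and Sostdc1 TFH at 0.77, of which activated and effector, effector and TFR, and TFR and Sostdc1 TFH exchanged places from mouse to mouse. Central memory TFH was lowest at 0.57 ± 0.13 (SD, n = 8), below Sostdc1 TFH in 8 of 8 mice.

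Ccnd3, the other D-type cyclin, ran in another order. Central memory TFH (0.78 ± 0.15, SD, n = 8) and effector TFH (0.77 ± 0.13, n = 10) were at the top, with 5 of 8 mice in that order, so these neighbours did not separate. TFR was lowest at 0.57 ± 0.06 (SD, n = 10) and lay below activated TFH (0.67) in 10 of 10 mice. Central memory TFH therefore held the lowest mean level of Ccnd2 and the highest of Ccnd3, whereas both cyclins were lower in TFR than in activated TFH in 10 of 10 mice.

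The kinases also parted. Cdk4 was highest in central memory TFH, at 0.75 against 0.48 in TFR, and the difference had this sign in 8 of 8 mice. WT mice 11, 12, 14, 23 and 36 gave 0.71, 0.70, 0.78, 0.72 and 0.88 for Cdk4 in central memory TFH, and 564Igi mice 13, 17 and 24 gave 0.98, 0.88 and 0.38. Mouse 24 stood low and the other 7 mice lay at 0.70 or above. The other 5 clusters ranged from 0.48 down to 0.38 in interferon stimulated TFH. Cdk6 was low throughout, found in 15.8% of cells, and its mean levels ranged from 0.23 in effector TFH to 0.12 in central memory TFH, a difference seen in 8 of 8 mice. Cdk6 was higher in TFR than in activated TFH in 10 of 10 mice, by 0.063 ± 0.030 (SD).

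Among the genes that restrain division, Btg1 varied most over the clusters and Cdkn1b least. Btg1 was found in 82.1% of all cells and was highest in effector TFH, at 2.05 ± 0.25 (SD, n = 10), above TFR (1.72) in 9 of 10 mice. TFR in turn exceeded activated TFH by 0.24 ± 0.10 (SD) in 10 of 10 mice, and Sostdc1 TFH was lowest at 1.44. Btg2 ranged from 0.63 in Sostdc1 TFH to 0.52 in central memory TFH, and between neighbours in the order no more than 7 of 10 mice, or 6 of 8, had the same sign. Clusters farther apart did separate. Btg2 in TFR differed from activated TFH by -0.059 ± 0.037 (SD) and was higher in only 1 of 10 mice. In central memory TFH the difference from activated TFH was -0.10 ± 0.075 (SD), and 1 of 8 mice was higher. Cdkn1b ranged from 0.57 in central memory TFH to 0.49 in effector TFH, a range of 0.073 over clusters that was smaller than the average SD of 0.13 between mice within a cluster.

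**Figure D1:**
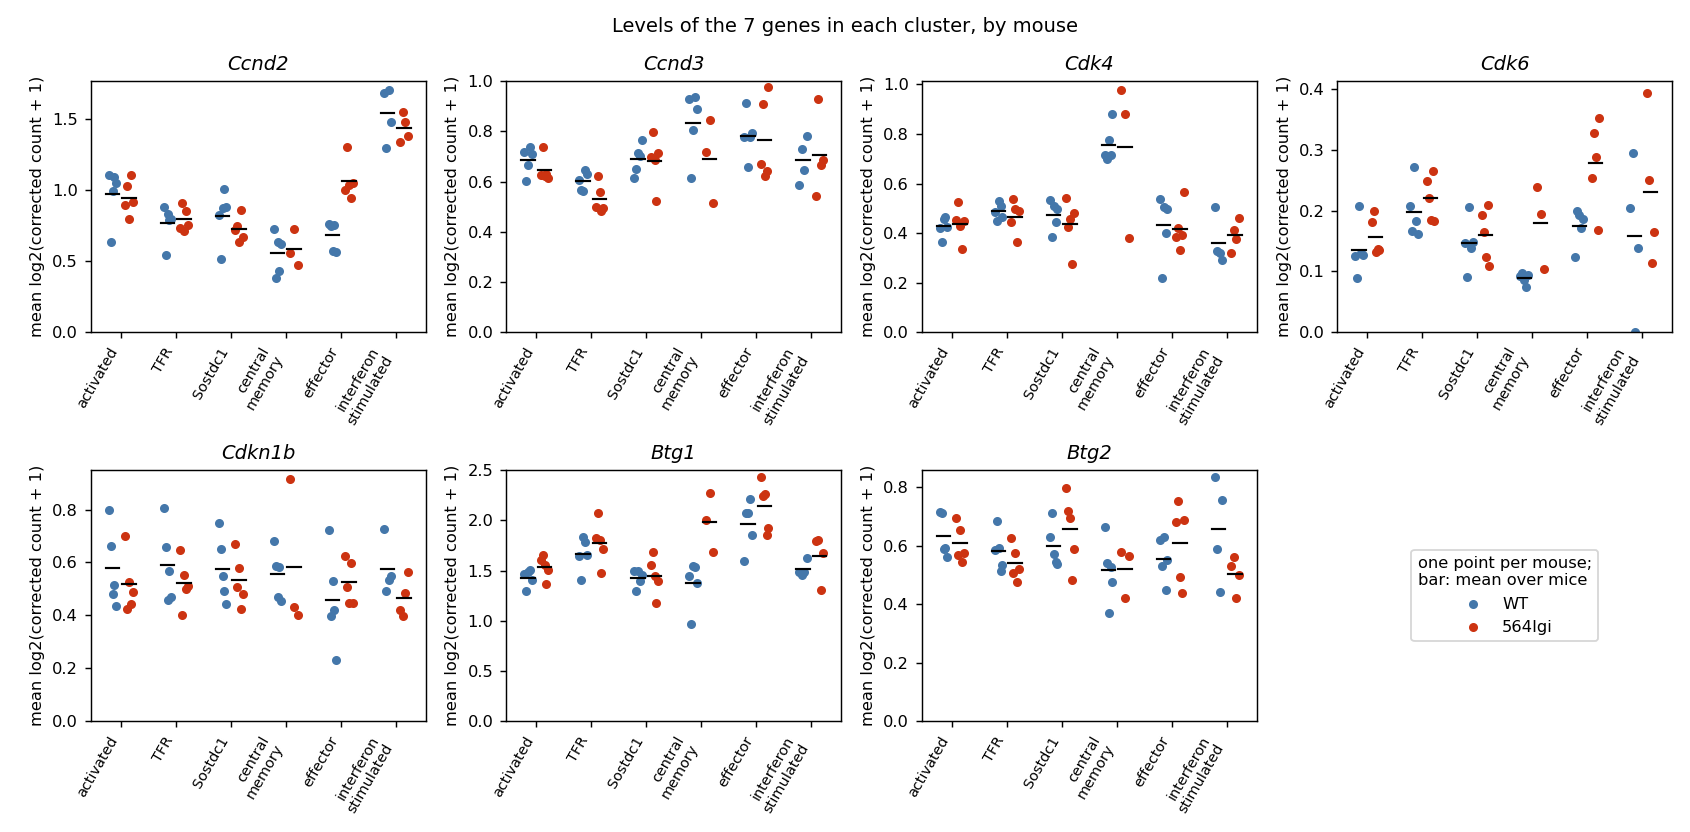
Mean log2(corrected count + 1) of each of the 7 genes (vertical axes) in the 6 clusters (horizontal axes), with 1 point per mouse in blue for WT and red for 564Igi, and a bar at the mean over mice. Ccnd2 stands highest in interferon stimulated TFH, Cdk4 in central memory TFH and Btg1 in effector TFH, and the 564Igi points for Ccnd2 in effector TFH (0.94 to 1.31) lie above the WT points.

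The genes most like each member were sought over the 56 mouse-by-cluster profiles. The 3 highest Pearson correlations with each member among 7093 genes are given as a description, since the profiles share libraries, depth and clusters. For Ccnd2 these were Gbp2 (r = 0.831), Psmb8 (0.828) and Phf11b (0.828), and Gbp2 and Psmb8 are interferon inducible. For Cdk4 they were Mcm7 (0.839), a helicase subunit, Hsdl2 (0.834) and Tmem39b (0.830). For Btg1 they were Adam19 (0.749), Nab1 (0.740) and Dcp1b (0.736), which acts in mRNA decapping. Cdkn1b was followed by Hspa4 (0.752), an HSP110 family chaperone, Cd2ap (0.728) and Esco1 (0.676), and Cdk6 by Klf10 (0.744), Icam1 (0.644) and Flywch1 (0.623). Ccnd3 was followed less closely by Tle3 (0.680), Unc119b (0.653) and Cdc42se1 (0.635), and Btg2 least by Rev3l (0.589), Dennd1c (0.569) and Rock2 (0.556). Over the means of the 6 clusters Rev3l ran against Btg2 (r = -0.254), and the other genes named here had r of 0.547 to 0.986 with their member.

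The comparison of 564Igi with WT chimeras asks whether the resting machinery differs between autoimmune and immunized follicular T cells. Over all cells none of the 7 genes was called, where 1 of 9959 genes was (0.010%). The largest differences were those of Btg1, 1.54 in WT and 1.65 in 564Igi mice (log2 difference 0.11, SE 0.089), and Cdkn1b, 0.58 and 0.52 (-0.06, SE 0.053). Ccnd3 differed by -0.05, Btg2 by -0.02, Cdk4 by -0.02, Cdk6 by 0.02 and Ccnd2 by 0.01, all with limma adjusted p = 0.9997, as for Btg1 and Cdkn1b. The 95% interval of the Ccnd2 difference ran from -0.12 to 0.15. That of Cdk4 ran from -0.08 to 0.04 and that of Btg1 from -0.07 to 0.30. Differences inside these bounds were compatible with the fit, and the bounds do not give the smallest difference that could be called. Ccnd2 was 0.572 in WT mouse 12, and the 9 other mice lay between 0.763 and 0.986.

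Within clusters, again no member was called. The background was 1 gene (0.0101%) in activated TFH, 2 genes (0.0200%) in TFR, 2 genes (0.0202%) in Sostdc1 TFH, 1 gene (0.0104%) in effector TFH, 1 gene (0.0106%) in interferon stimulated TFH and 0 genes (0%) in central memory TFH, where 784 genes had an unadjusted limma p under 0.05. Of the 49 member differences over all cells and the 6 clusters, 5 had an unadjusted p under 0.05. They were Ccnd2 and Cdk6 in effector TFH, Btg1 and Cdk6 in central memory TFH and Ccnd3 in TFR. Of all genes tested, 5.22% in effector TFH and 7.57% in central memory TFH had such a p. The share is not given here for TFR and the other comparisons.

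**Figure D2:**
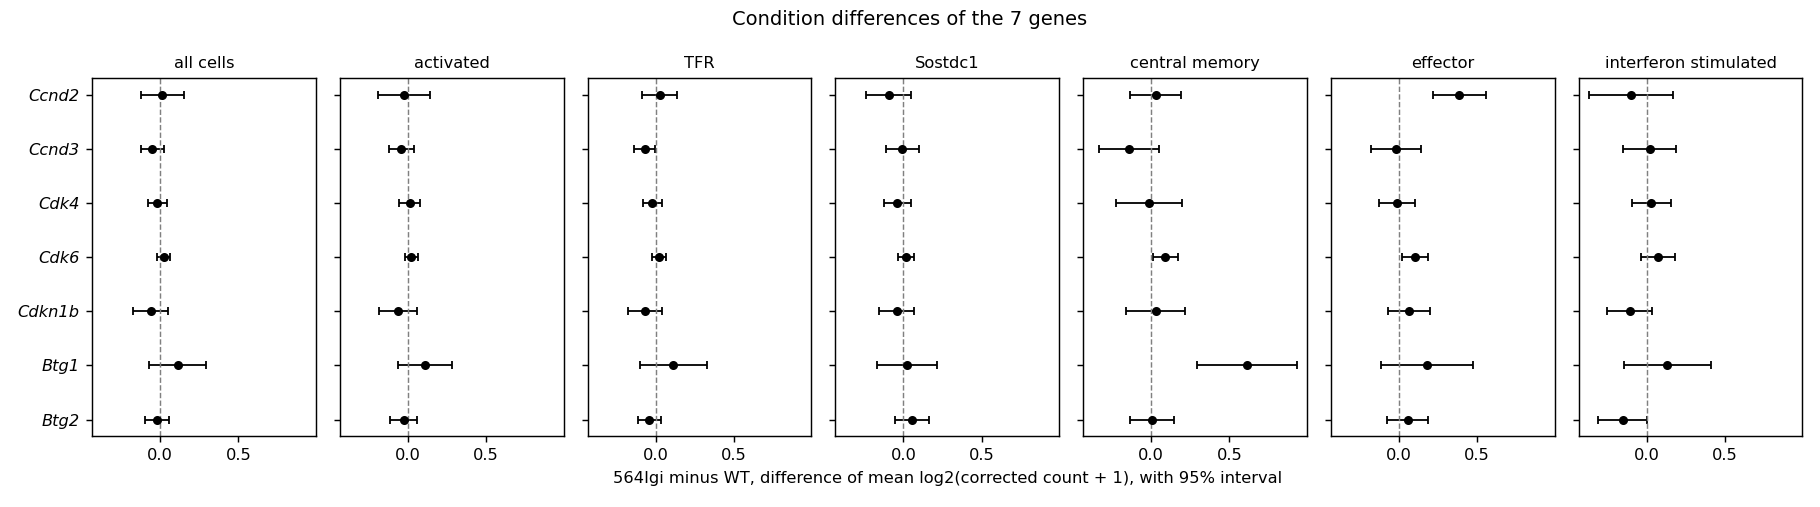
Difference 564Igi minus WT in mean log2(corrected count + 1) (horizontal axes) for the 7 genes (rows) in all cells and in each cluster, as points with 95% intervals from limma. The intervals of Ccnd2 in effector TFH (0.22 to 0.55) and of Btg1 in central memory TFH (0.29 to 0.93) lie farthest from 0, and most others cross it.

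Effector TFH cells showed the widest gap for a cyclin. Ccnd2 levels were 0.760, 0.750, 0.573, 0.757 and 0.568 in WT mice 11, 12, 14, 23 and 36. They were 0.999, 1.31, 1.04, 0.945 and 1.05 in 564Igi mice 13, 17, 21, 24 and 34. The lowest 564Igi mouse lay above the highest WT mouse, so the groups did not overlap, and mouse 17 was the highest. The means were 0.68 and 1.07, a log2 difference of 0.39 (SE 0.083), and the share of cells with a Ccnd2 transcript was 43.8% ± 6.1 in WT and 61.7% ± 8.5 in 564Igi mice (SD, n = 5 each). The limma adjusted p was 0.0523, which misses the threshold, and over 21 other settings it ranged from 0.0144 to 0.636, with the same sign in each. The difference ranged from 0.33 to 0.42, leaving out the settings on percent of cells and on the log2 mean count, whose scales differ. Groups that did not overlap were found for 0.882% of 9637 genes in effector TFH. These values rest on 23 to 173 effector cells per mouse.

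The effector result was set against the same mice's activated TFH cells. Ccnd2 was on average lower in effector than in activated cells by 0.29 in WT mice, where 1 of 5 was higher. In 564Igi mice it was on average higher by 0.12, with 4 of 5 higher. The difference of these differences was 0.41 (SE 0.11), with an adjusted p of 0.723 in a limma fit that called 0 of 9208 genes (0%; 545 had an unadjusted p under 0.05), so a change particular to effector TFH was not established. Median UMIs per effector cell were 3520 to 4161 in WT and 2687 to 4445 in 564Igi mice. The summed B cell genes were 0 to 0.0526 corrected counts per cell in WT effector cells and 0.0289 to 0.116 in 564Igi effector cells, and the summed CD8 and NK genes 0.338 to 0.913 and 0.486 to 1.02. The study's own 11 marker genes summed to 63.2 to 149 in WT and 109 to 243 in 564Igi effector cells. The part of these differences in the Ccnd2 result was not tested.

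Cdk6, a kinase partner of cyclin D2, stood in the same direction in effector TFH. Its levels were 0.124, 0.199, 0.193, 0.171 and 0.187 in WT mice 11, 12, 14, 23 and 36 and 0.253, 0.326, 0.287, 0.169 and 0.352 in 564Igi mice 13, 17, 21, 24 and 34. Of the 564Igi mice 4 lay above all WT mice and mouse 24 lay among them. The log2 difference was 0.10 (SE 0.040, limma adjusted p = 0.945). The other members in effector TFH gave 0.18 for Btg1 (95% interval -0.12 to 0.47), 0.06 for Cdkn1b and for Btg2, -0.01 for Cdk4 and -0.02 for Ccnd3. Of the 9637 genes tested in effector TFH 5.22% had an unadjusted p under 0.05, against 2 of the 7 members.

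Central memory TFH cells showed the largest difference for Btg1. WT mice 11, 12, 14, 23 and 36 gave 1.44, 0.970, 1.55, 1.54 and 1.37, and 564Igi mice 13, 17 and 24 gave 2.004, 2.27 and 1.68. The groups did not overlap. The means were 1.37 and 1.99, a log2 difference of 0.61 (SE 0.15), and the shares of cells with a Btg1 transcript were 75.4% and 92.5%. The limma adjusted p was 0.215, and it ranged from 0.0254 without 564Igi mouse 24 to 0.548 over 18 other settings. The difference ranged from 0.47 to 0.76, again leaving out the settings on percent of cells and on the log2 mean count. Groups that did not overlap were found for 4.77% of 10351 genes in this cluster. Median UMIs of these cells were 3404 to 4137 in WT mice, and in 564Igi mice they were 2611, 4425 and 5842 at the lowest, median and highest; the part of depth was not tested.

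Cdk6 in central memory TFH was 0.074 to 0.097 in the 5 WT mice and 0.238, 0.195 and 0.103 in 564Igi mice 13, 17 and 24. These groups did not overlap either, although mouse 24 lay just above the WT range. The log2 difference was 0.09 (SE 0.038, limma adjusted p = 0.610). In this cluster 7.57% of genes had an unadjusted p under 0.05. Relative to activated TFH of the same mice, Btg1 in central memory TFH was on average lower by 0.057 in WT mice, where 2 of 5 were higher. In 564Igi mice it was higher by 0.44, in 3 of 3. The difference was 0.50 (SE 0.096, limma adjusted p = 0.298), in a fit that called 0 of 9516 genes (0%, with 848 at an unadjusted p under 0.05).

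**Figure D3:**
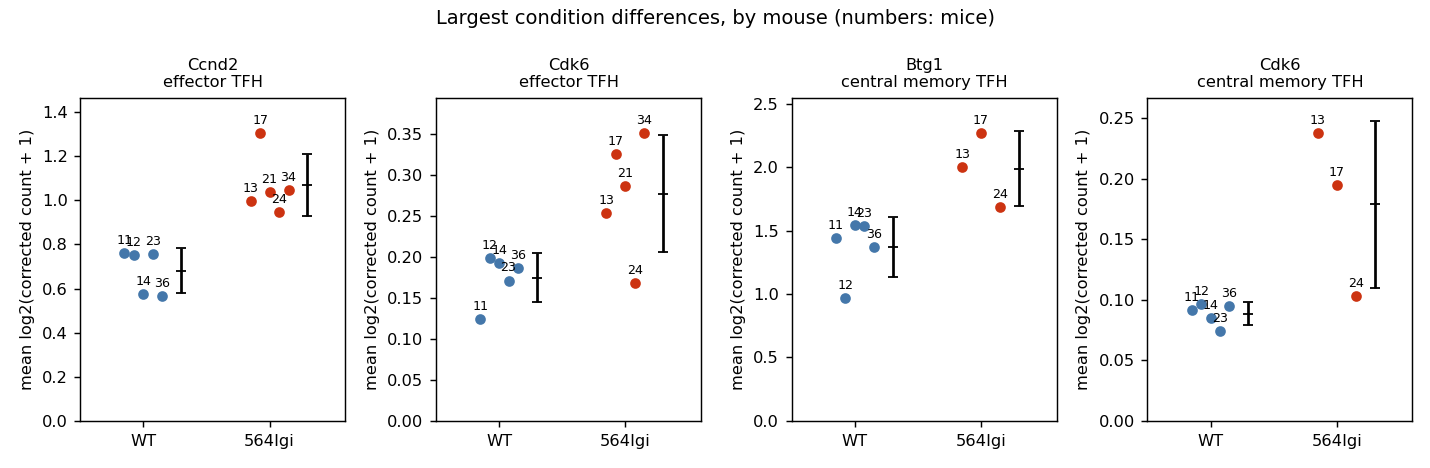
Mean log2(corrected count + 1) by mouse (points with mouse numbers, blue for WT and red for 564Igi) for Ccnd2 and Cdk6 in effector TFH and Btg1 and Cdk6 in central memory TFH, with the mean and SD beside each group. Ccnd2 runs from 0.57 to 0.76 in WT and from 0.94 to 1.31 in 564Igi mice, and only 3 564Igi mice enter the central memory panels.

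In TFR cells Ccnd3 pointed the other way. It was 0.563 to 0.648 in the 5 WT mice and 0.500, 0.620, 0.559, 0.482 and 0.496 in 564Igi mice 13, 17, 21, 24 and 34. Of the 564Igi mice 4 lay below all WT mice, and mouse 17 lay within their range. The log2 difference was -0.07 (SE 0.031, limma adjusted p = 0.9998). A limma fit of TFR minus activated TFH per mouse asked whether the condition difference was unlike in the 2 clusters, and called 0 of 9582 genes (0%; 701 with an unadjusted p under 0.05). Its lowest member p was that of Cdk4, whose excess in TFR over activated TFH was 0.061 in WT and 0.028 in 564Igi mice (difference -0.03, SE 0.014, adjusted p = 0.661).

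The wider pathway gave the same count. Of 33 other G1/S genes, such as Cdk2, the E2F factors and the INK4 inhibitors, 27 were tested over all cells, and of 33 other genes of quiescence and of the BTG network, such as Tob1, Foxo1 and the CCR4-NOT subunits, 30 were tested. No gene of either list was called in any comparison of conditions or clones. Over all cells the median log2 difference was -0.0035 for the G1/S genes and -0.0071 for the quiescence genes, against -0.0018 over all genes. In effector TFH it was -0.00021 and -0.021 against -0.0043. There Klf2, a transcription factor of resting T cells, was 0.74 in WT and 0.36 in 564Igi mice (log2 difference -0.38, SE 0.069, limma adjusted p = 0.0145), the only gene of either list under an adjusted p of 0.05 in a comparison of conditions, and it was singled out after its values were seen.

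Clonal expansion gave a second comparison, in which receptor sequences set the groups inside each cluster. Cells sharing both CDR3 amino acid sequences within a mouse were taken as a clonotype, and cells of clonotypes with 5 or more cells were set against cells of clonotypes seen once, within each mouse and cluster. Activated TFH gave 4877 expanded cells of 801 clonotypes and 2416 single cells, TFR 3953 of 664 and 2972, and Sostdc1 TFH 1171 of 377 and 340 in 7 mice. Expanded cells held fewer UMIs, with a lower median in 8 of 10 mice in activated TFH (mean difference -408), 9 of 10 in TFR (-219) and 5 of 7 in Sostdc1 TFH (-232). Each member difference was therefore also computed within 5 bins of UMIs, an alternative chosen after seeing the data.

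No member was called in either form, in fits that called 0 of 9896, 0 of 9997 and 0 of 10113 genes in activated TFH, TFR and Sostdc1 TFH (0% each). Small shifts were common, since 23% of genes in activated TFH and 18.4% in TFR had an unadjusted limma p under 0.05 (2280, 1839 and 573 genes in the 3 clusters). In activated TFH the largest member difference was that of Ccnd2, 1.02 in expanded and 0.92 in single cells. Its differences by mouse were 0.30, -0.12, 0.16, 0.15 and 0.14 in WT mice 11, 12, 14, 23 and 36 and 0.06, 0.28, -0.11, -0.02 and 0.12 in 564Igi mice 13, 17, 21, 24 and 34. It was higher in expanded cells in 7 of 10 mice (mean 0.10, SE 0.041, limma adjusted p = 0.181). Within UMI bins the difference was 0.16 (SE 0.037, adjusted p = 0.0338, higher in 8 of 10 mice), still short of both limits of the call. Cdkn1b was lower in expanded cells by 0.028 (adjusted p = 0.187), and Btg1 changed from 0.024 to -0.063 within UMI bins.

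In TFR cells Cdk6 and Btg1 were the members with the lowest p. Cdk6 was 0.229 in expanded and 0.189 in single cells, and its differences by mouse ran from -0.013 to 0.078 with a median of 0.048. The mean was 0.040 (SE 0.0095, limma adjusted p = 0.0635, higher in 8 of 10 mice), and within UMI bins it was 0.058 (adjusted p = 0.0519, higher in 10 of 10 mice). Btg1 was higher in expanded TFR cells in 9 of 10 mice by 0.092 (SE 0.024, adjusted p = 0.0816), and by 0.040 within UMI bins (adjusted p = 0.609, 5 of 10 mice). Ccnd3 (-0.045), Btg2 (-0.038) and Cdkn1b (-0.036) were each lower in expanded TFR cells in 7 of 10 mice, with adjusted p of 0.230, 0.154 and 0.262.

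**Figure D4:**
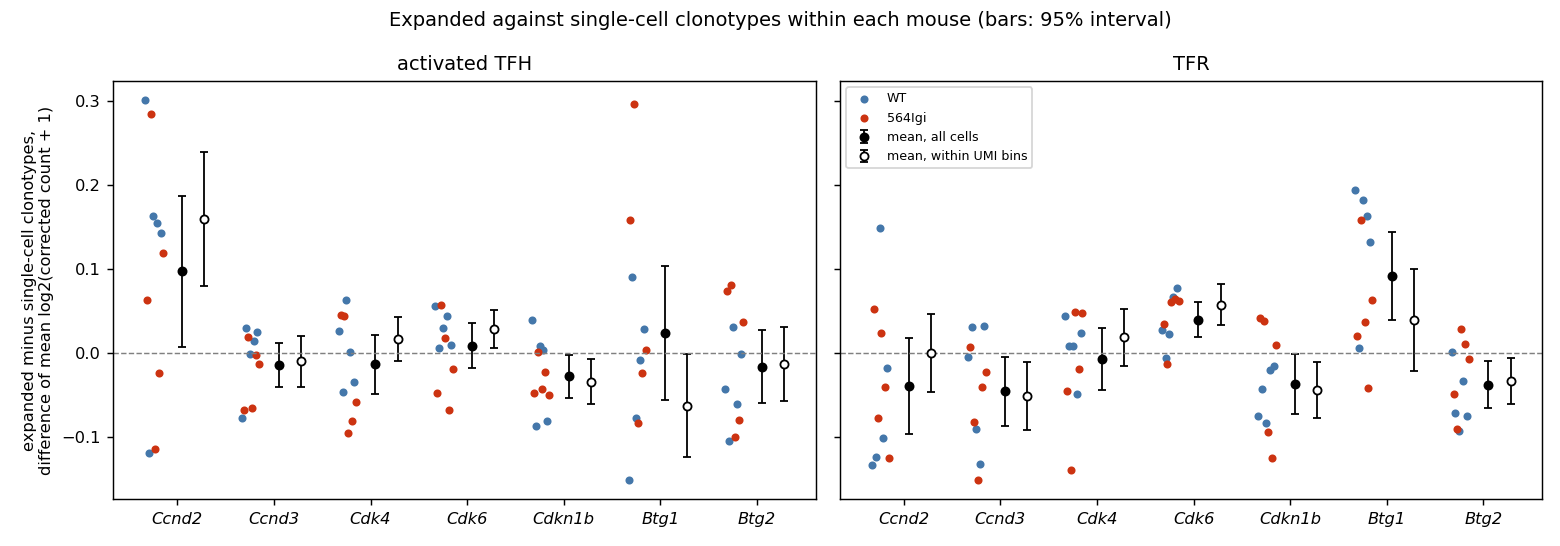
Expanded minus single-cell clonotypes within each mouse, as the difference of mean log2(corrected count + 1) (vertical axis) for the 7 genes in activated TFH and TFR, with coloured points for mice (blue WT, red 564Igi), filled circles for the mean over all cells and open circles for the mean within UMI bins, both with 95% intervals. Ccnd2 in activated TFH lies at 0.10 and at 0.16 within bins, and Cdk6 in TFR at 0.040 and 0.058.

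The other genes of the quiescence list were counted by direction in each cluster, beside all genes and with no test of the list. These counts were not made within UMI bins, and the part of the lower depth of expanded cells in them was not tested. In TFR 13 of 30 tested genes of that list had an unadjusted p under 0.05, all 13 lower in expanded cells, where 15.4% of all genes were lower and 3.04% higher at that level. The median difference there was -0.020, against -0.0053 over all genes, and no gene of the list had an adjusted p under 0.05 (1.11% of all genes were lower and 0.430% higher at that limit). In activated TFH 9 of 30 genes were lower and 1 higher at an unadjusted p under 0.05, against 18.8% and 4.27% of all genes. At an adjusted p under 0.05 there were 5 lower and 1 higher, against 4.85% and 1.53% of all genes. In Sostdc1 TFH 1 of 31 genes was lower and 1 higher at an unadjusted p under 0.05, against 4.02% and 1.64% of all genes, and the median was -0.0090 against -0.0056. Lower genes were not confined to the quiescence list. Of the G1/S list in activated TFH, 8 of 29 genes were lower and 2 higher at an unadjusted p under 0.05. At an adjusted p under 0.05, 3 were lower and 1 higher there. In TFR 3 of 26 G1/S genes were lower and 1 higher at an unadjusted p under 0.05. The values given next were picked after they were seen. In expanded activated TFH cells Foxo1, a transcription factor of naive T cells, was lower by 0.061 (limma adjusted p = 0.00883) in 10 of 10 mice. Pabpc1, the poly(A) binding protein, was lower there by 0.14 (0.00882) in 10 of 10 mice. Vsir, which encodes the checkpoint receptor VISTA, was higher there by 0.090 (0.0123) in 10 of 10 mice. Within UMI bins these became -0.046, -0.094 and 0.10, with limma adjusted p of 0.0199, 0.00867 and 0.00783. Foxp1 of the same list moved from a limma adjusted p of 0.0269 to 0.0716 within bins, while Klf2 (0.0422) and Pdcd4 (0.0454) stayed under 0.05. Of the G1/S list, Cdkn2d (-0.066, limma adjusted p = 0.0149), Tfdp1 (-0.041, 0.0440) and Myc (-0.029, 0.0314) were lower in expanded activated TFH cells. Cdkn1a was higher (0.022, 0.0393). Within bins the limma adjusted p was 0.0328 for Cdkn2d, 0.347 for Tfdp1, 0.0663 for Myc and 0.0363 for Cdkn1a. All lay under the log2 limit of 0.2, so none was called.

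Whether the clone difference was unlike in 564Igi and WT mice was tested directly. These fits called 0 of 9896 genes in activated TFH, 0 of 9997 in TFR and 0 of 10113 in Sostdc1 TFH (0% each; 695, 688 and 585 genes had an unadjusted limma p under 0.05). Ccnd3 in Sostdc1 TFH had the lowest member p. Expanded minus single levels were 0.09, 0.18 and 0.24 in WT mice 11, 23 and 36 and 0.04, -0.09, 0.04 and 0.01 in 564Igi mice 13, 17, 21 and 34, so the groups did not overlap, as for 6.78% of genes. The difference between conditions was -0.17 (SE 0.049, adjusted p = 0.694), and it was -0.07 within UMI bins.

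The authors' phase scores were used last, to describe the members over the range of scores that the filter left. Within each mouse, the upper quartile of cells by G2/M score was set against the lower quartile, with no test, since scores and levels come from the same cells. In activated TFH, Ccnd2 was lower in the upper quartile by 0.47 ± 0.11 (SD, n = 10 mice), Cdk4 by 0.21 and Cdk6 by 0.10, each in 10 of 10 mice, while Btg1 was higher by 0.45 ± 0.16 in 10 of 10 mice. Depth moved with the score: the median UMIs per cell, averaged over the 10 mice, were 2718 in the upper and 5417 in the lower quartile. Within UMI bins the Ccnd2 difference was -0.15 and that of Btg1 0.079, and Cdk6 was at 0.0019.

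Cdkn1b behaved otherwise. In TFR it was higher in the upper G2/M quartile by 0.11 ± 0.09 (SD) over all cells and by 0.11 ± 0.07 within UMI bins, where all 10 mice had this sign. In activated TFH the values were 0.041 and 0.094, the latter in 9 of 10 mice. Within UMI bins TFR cells still gave a lower Ccnd2 (-0.09, 10 of 10 mice) and a higher Btg1 (0.12, 9 of 10 mice) in the upper quartile. Some difference in depth remained inside the bins, at -609 median UMIs in activated TFH and -626 in TFR, and its part was not tested. For the S score in activated TFH, Ccnd2 moved from -0.05 over all cells to 0.12 within bins (higher in 8 of 10 mice), the opposite sign to its G2/M value, and Btg1 from 0.20 to 0.0071. Btg2 was lower in the upper S quartile in 10 of 10 mice, by 0.088 over all cells and 0.049 within bins. In TFR, Ccnd2 moved from -0.19 to -0.0066 and Btg1 from 0.23 to 0.010.

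**Figure D5:**
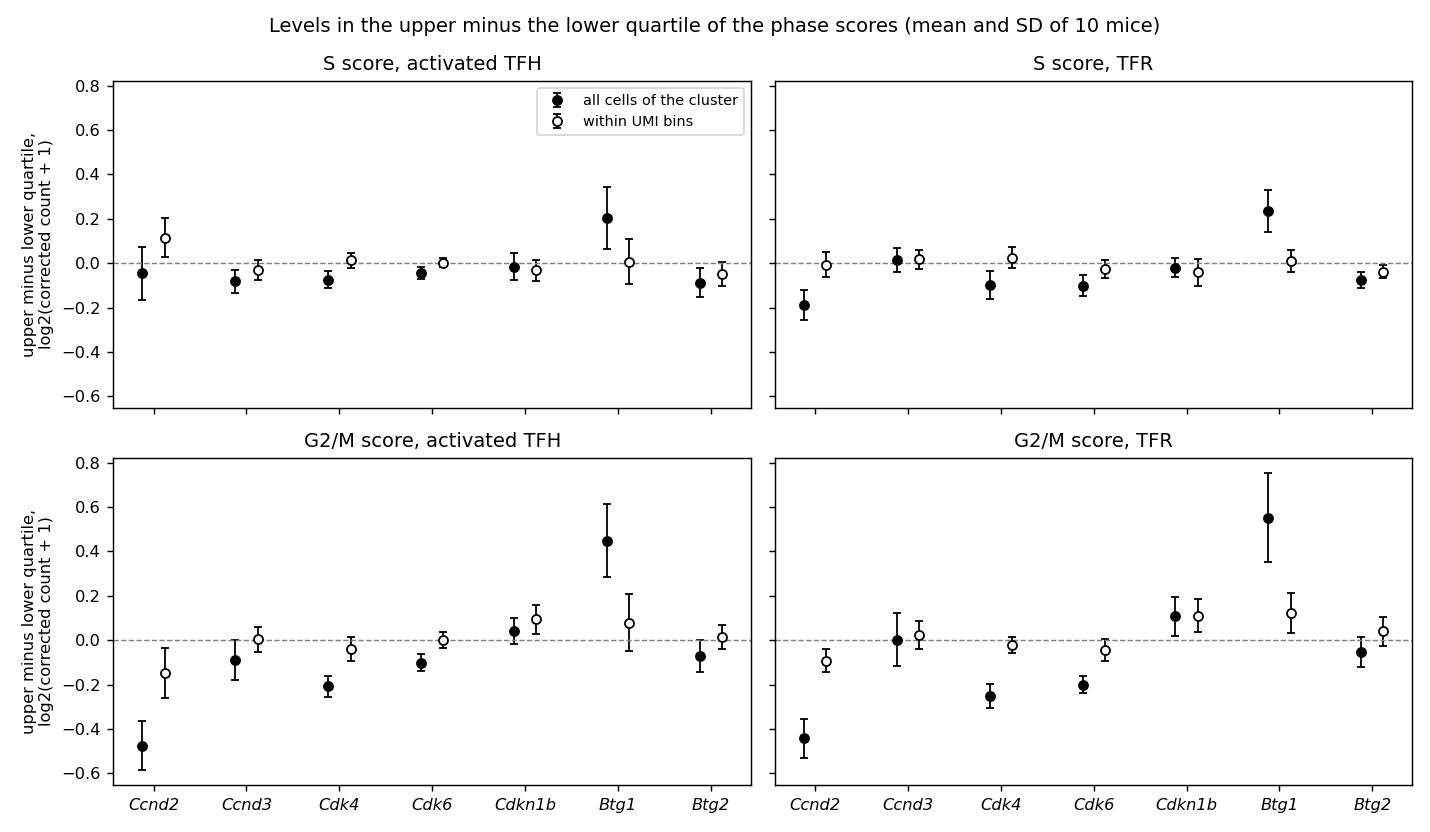
Upper minus lower quartile of the S score (top) and G2/M score (bottom) in log2(corrected count + 1) for the 7 genes in activated TFH and TFR, as the mean and SD of 10 mice over all cells of the cluster (filled) and within UMI bins (open). For the G2/M score in activated TFH, Ccnd2 moves from -0.47 to -0.15 and Btg1 from 0.45 to 0.079 within UMI bins, where the upper quartile still held fewer UMIs.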

How the data were processed

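Single-cell RNA and T cell receptor libraries of 10 chimeras were sequenced by the authors, who aligned reads with Cell Ranger 4.0.0 to GRCm38 (mm10) and filtered cells in Seurat 3.1.4 by genes, reads, mitochondrial and ribosomal content and phase scores. They normalized each condition separately with sctransform and named the clusters. The deposited expression values are natural log values of the corrected count plus 1, and undoing the log gave whole numbers for all 47314549 values above 0 (tolerance 1e-06), which are not raw counts. The deposited cell table adds raw UMI counts per cell, mitochondrial percent and phase and heat shock scores. It holds fewer cells than the study's methods give after filtering. Doublets were not removed here.

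Levels are means over a mouse's cells of log2(corrected count + 1), pseudocount 1. limma 3.58.1 (R 4.3.3) with trend was fitted to genes detected in 1% or more of the cells of enough mice to fill the smaller group, and adjusted over all of them. Library labels set the groups, and no source says that the libraries were run together. The fit was tested on simulated data. Exact permutation over mice was used for depth and scores. Of 33833 cells in the receptor table, 21405 matched the RNA cells. Members and gene lists were chosen with earlier results of these data known. Genes named outside the 7 were to be those called from the lists (none was), the 3 of highest likeness per member, and the 2 phase genes per list found in most cells; others are said to be picked after seeing values. Alternatives covered the trend, filters, covariates, scaling, averaging, cell sets, clone sizes and leaving out mice.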

Additional observations from a re-analysis of the deposited data

Results flagged for a closer look

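For each gene, the 4 or 5 mice of a condition, over all cells and in each cluster, were searched for a highest or lowest value that stood far from its neighbours (Dixon's criterion at the 95% level), and 6 of 91 groups held one. Chance alone gives about 1 in 20 groups. WT mouse 12 was lowest for Ccnd2 in all cells at 0.572, in activated TFH at 0.632 and in TFR at 0.547. 564Igi mouse 17 was highest for Ccnd2 in effector TFH at 1.31 and for Ccnd3 in activated TFH at 0.737. WT mouse 14 was highest for Cdk6 over all cells at 0.231.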

How the results depend on the processing

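In all 16 comparisons the number of members called was 0, and it was 0 in each of 268 alternative counts. Of 112 member differences, 45 changed sign under some alternative, and none of those had an unadjusted p under 0.05. The 17 differences with an unadjusted p under 0.05 kept their direction under every alternative run. Over all cells the Ccnd2 difference of 0.013 became -0.00071 in cells with both scores at or below 0, -0.059 without WT mouse 12, -0.012 without 564Igi mouse 17 and -0.016 without 564Igi mouse 24, and leaving out mice gave -0.059 to 0.040. That of Cdk4 became 0.0089 without 564Igi mouse 24, within a range of -0.037 to 0.0089. Leaving out mice moved the adjusted p of Ccnd2 in effector TFH between 0.0475 and 0.184, and with heat shock score as a covariate it was 0.0144. The cause was not tested. No paired analysis was possible because WT and 564Igi mice share no replicate number. Leaving out cells with more than 1 alpha or beta sequence was not run, since every cell in the receptor table lists 1 of each. UMI bins and the effector and central memory comparisons with activated TFH were added after seeing the data. Clusters with few cells limit the effector, central memory and interferon stimulated values.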
